A study of Mus musculus with 10 samples.

Results

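Cholesterol and fatty acids are built from acetyl-CoA by enzymes whose genes are described here in 10 microarrays of mouse spermatogonia. The members are 32 listed lipid synthesis genes, taken by name: a non-control probe was read where its gene name equaled a listed symbol, and where a gene had several probes the one with the brightest mean log2 signal stood for it. They are 32 of the 34821 named genes on the array and comprise 18 sterol enzymes, 8 fatty acid enzymes and 6 genes of regulation and transport. All 32 were well above background on all 10 arrays, so the filter on dim probes removed none of them.

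The study asked how FGF5 and related mitogens set the number of spermatogenic stem cells in the mouse testis. One experiment used germline stem (GS) cells, spermatogonia that renew themselves in culture, which were starved of FGF2 and GDNF over 3 days and received 100 ng/mL FGF5 for 24 hr (2 samples) or none (2 samples). The other used GFP+ cells sorted from testes of mice aged 2.5 months that carried Gfrα1-GFP, in a WT (3 samples) or Fgf5-/- (3 samples) background. The comparisons ask what FGF5 does to the cultured cells and what its loss does to the sorted cells.

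The labels give C57BL/6 as the strain of every sample and wildtype as the genotype of the cultured ones, whereas the study's methods derive the GS cells from an intercross of C57BL/6 and ICR mice. The sources used here do not say whether a sorted sample pooled mice, whether feeder cells were left in the arrayed cultures, or whether samples of equal number were paired. Each sample was hybridized to 1 Agilent array with Cy3 as its single dye, and a value is the log2 signal relative to the 75th percentile of its array, so that 0 marks that percentile and a difference of 1 is a 2-fold difference. That percentile was 575 to 650 scanner units in culture and 794 to 1091 in sorted cells. Well above background there were 62.9% to 65.2% of the probes in culture and 55.3% to 65.9% in sorted cells. The number of arrays is small, and the SE beside a difference gives its precision. Cultured and sorted samples lay on separate slides, so material, slide and scan cannot be told apart.

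Sterol synthesis runs from acetyl-CoA through mevalonate, isoprenoid diphosphates and squalene to lanosterol, which a further series of enzymes turns into cholesterol, and the fatty acid branch starts from the same acetyl-CoA. SREBP transcription factors switch on genes of both branches when the membranes of the endoplasmic reticulum are poor in sterol: SCAP then escorts them to the Golgi for cleavage, and INSIG proteins hold SCAP back when sterol is plentiful. In the testis, cholesterol is the raw material of androgens in Leydig cells, and sterol intermediates downstream of lanosterol accumulate and have been named meiosis-activating sterols.

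The labeled cell type was checked against 10 markers of spermatogonia, and all 10 were well above background on every array. The summed linear level of these markers, in multiples of the 75th percentile, was 176 to 182 in cultured and 198 to 225 in sorted cells, and Zbtb16 had the highest value on every array. That sum follows a few bright probes: by limma 6 of the 10 were called lower in culture, 5 of them at least 2-fold, and 1 higher, with a median log2 difference of -1.13 and with -3.50 for Etv5, -3.01 for Gfra1 and -2.11 for Ret. These 3 join cultured groups with unlike means, which with and without FGF5 were 3.68 and -0.24 for Etv5, -1.52 and -3.08 for Gfra1 and 0.35 and -1.09 for Ret, although limma called 0 probes with FGF5 (882 at an unadjusted p under 0.05). The genotype could not be checked on the array, because the Fgf5 probe was well above background on 0 of 3 WT arrays and on 1 of 3 Fgf5-/- arrays, with -3.42 on that array. Replicate 1 of the sorted Fgf5-/- samples was that array, and it stood apart in other values too. Across all probes, which are not independent, its Pearson correlations with the other sorted arrays were 0.968 to 0.978, against 0.974 to 0.982 among those. The differences of members described singly by genotype are therefore also given without it.

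Cultured GS cells had more signal from most sterol enzymes than sorted cells, and the fatty acid enzymes were divided. With limma across all 10 arrays, 24 of the 32 members were higher in culture at an adjusted p under 0.05, where 41.9% of all 35827 tested probes were. The members called lower were 5, where 25.7% of the probes were (67.6% in either direction). Under 1 other scaling Acaca and Insig2, of these 5, turned higher, and Sc5d and Fads1 missed the threshold. Fasn alone of the 5 was still called lower. The 4 cultured and 6 sorted arrays did not overlap, with culture higher, for 23 members (34.7% of probes) and, with culture lower, for 5 members (21% of probes). The median log2 difference was 0.82 over the members and 0.26 over all tested probes, and 13 members were at least 2-fold higher (8990 of the 35827 probes) and 1 at least 2-fold lower (3839 probes). Fewer cells of a type and less RNA per cell cannot be told apart in these bulk samples.

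**Figure D1:**
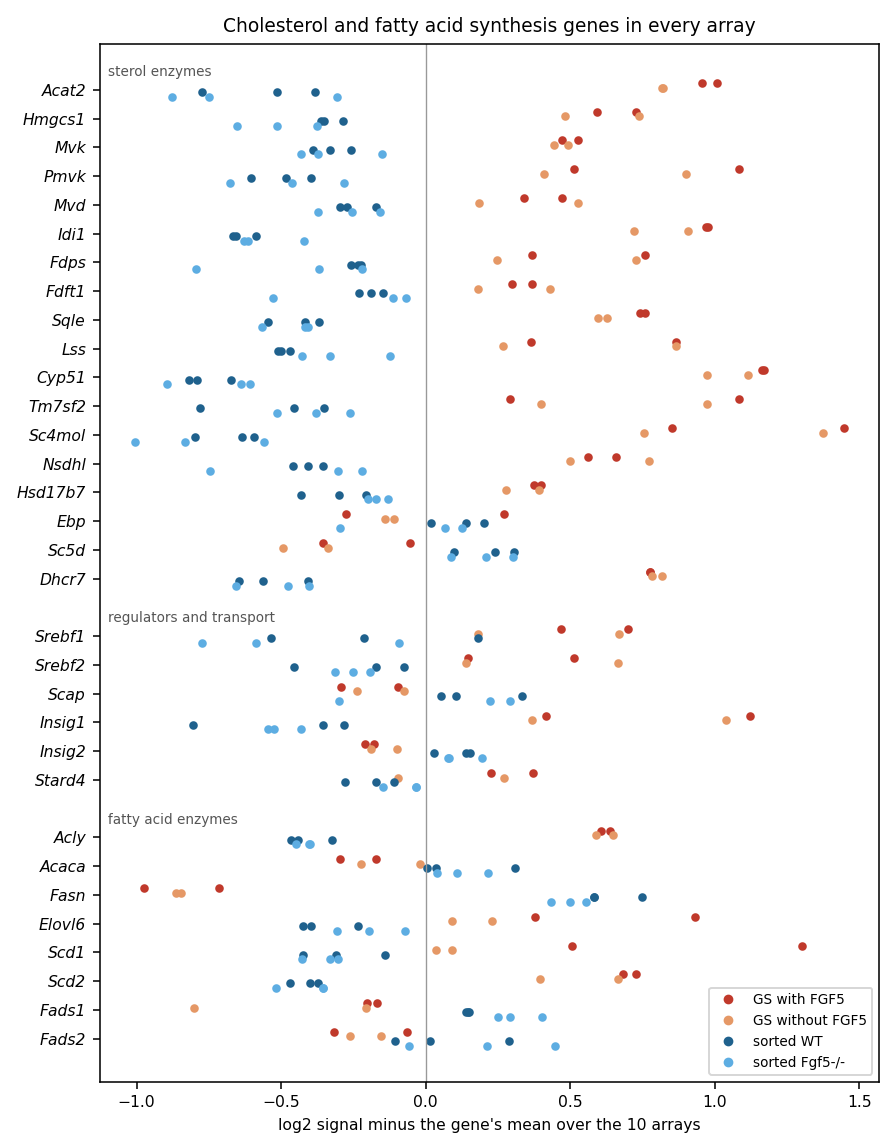
Log2 signal of each member on each of the 10 arrays, minus the gene's mean over the arrays, colored by group. The red and orange points of cultured cells lie to the right of the blue points of sorted cells for most sterol enzymes, to the left for Fasn, and the points of WT and Fgf5-/- cells overlap for 27 of the 32 members.

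The median over all tested probes depended on the scaling, and so did the direction of small differences. It was 0.13 with quantile normalization, 0.60 with the percentile taken over bright probes alone, those well above background, and 0.081 with a stricter filter, so shifts of -0.13, 0.34 and -0.18. Of all called probes, 62.0% were higher in culture here and 79.6% with that percentile. Measured from the median of all tested probes, 24 members lay above it under each of these scalings. The percentile over bright probes shifts all probes alike, so it could not change values measured from that median. The stricter filter leaves the members' differences as they are and changes only that median. The sterol enzymes lay above it by a median of 0.79 here and by 0.98, 0.79 and 0.97 under the 3 alternatives. For the fatty acid enzymes the same quantity was -0.069, then 0.085, -0.069 and 0.11, a median between members that lay from -1.68 (Fasn) to 0.78 (Acly) relative to the median of all probes. The regulators and transport genes lay above it by 0.21, 0.36, 0.21 and 0.38. For sterol enzymes, fatty acid enzymes and regulators in turn, the values were 0.66, -0.077 and 0.18 with normexp correction of the background. Without GS with FGF5 replicate 2 they were 0.73, -0.20 and 0.13. The fatty acid enzymes had -0.0036 without WT replicate 1.

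**Figure D2:**
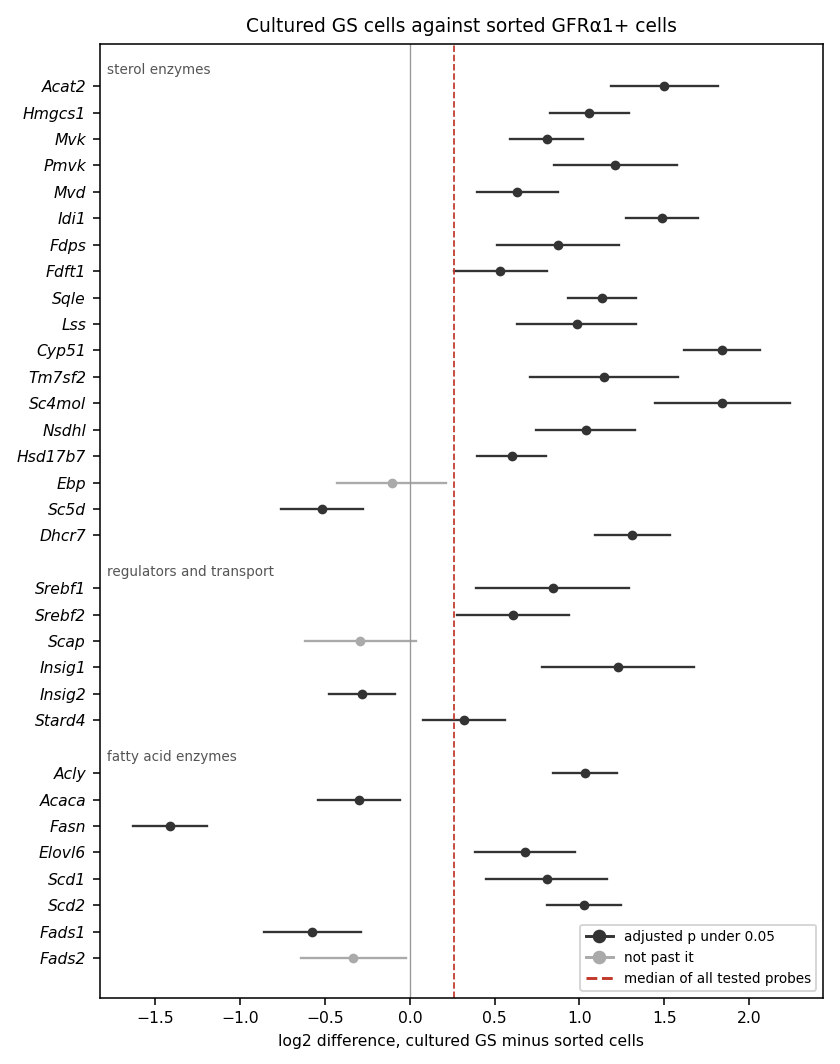
Log2 difference of each member between 4 cultured and 6 sorted arrays, with points for estimates and lines for 95% confidence intervals. Black marks an adjusted p under 0.05, gray the rest, and the dashed line the median of all tested probes at 0.26. Of 18 sterol enzymes, 16 lie above 0 in black; Acaca and Insig2, black below 0, turn to 0.043 and 0.059 with the percentile over probes well above background.

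Of the 18 sterol enzymes, 16 were called higher in culture (88.9%, beside 41.9% of all tested probes), 1 was called lower and 1 passed in neither direction, with a median log2 difference of 1.05. The first steps make mevalonate and its isoprenoid products. Acat2 (NM_009338), the cytosolic thiolase that joins acetyl-CoA units, read -0.035 and 0.018 with FGF5 and -0.17 and -0.17 without it. On the sorted arrays it ran from -1.87 to -1.30 with a median of -1.62. Every cultured array was thus far above every sorted array, and the means were -0.090 ± 0.097 (SD, n = 4) and -1.59 ± 0.23 (SD, n = 6). Acat2 was 2.83-fold higher in culture, with a log2 difference of 1.50 ± 0.14 (SE) and an adjusted p of 3.92e-05 by limma. Hmgcs1, the cytosolic HMG-CoA synthase, was 2.08-fold higher. Mvk and Pmvk, which phosphorylate mevalonate, were 1.75-fold and 2.32-fold higher, and Mvd, which decarboxylates the product, 1.55-fold.

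Idi1 (NM_145360, probe at chr13:8891524-8891583 in mm9) interconverts the isoprenoid building blocks. It read 4.80 and 4.79 with FGF5 and 4.73 and 4.54 without it, and from 3.16 to 3.40 with a median of 3.20 in sorted cells. The 4 cultured values lay within a narrow band more than 1 log2 unit above the highest sorted value. Its difference was 1.49 ± 0.092 (SE), 2.81-fold, with a 95% interval of 1.28 to 1.70 and an adjusted p of 6.51e-06 by limma. Fdps makes farnesyl diphosphate, the last intermediate shared with other isoprenoids, and was 1.83-fold higher. The enzymes committed to sterol were higher as well: Fdft1, squalene synthase, by 1.45-fold and Sqle, squalene epoxidase, by 2.20-fold. For all 9 of these early enzymes the cultured and sorted arrays did not overlap, and their differences ran from 0.53 (Fdft1) to 1.50 (Acat2).

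After squalene, Lss closes the ring to lanosterol, and it was 1.98-fold higher in culture. Cyp51 (NM_020010, probe at chr5:4081471-4081530 in mm9), lanosterol demethylase, read 1.29 and 1.28 with FGF5 and 1.23 and 1.09 without it. In sorted cells it ran from -0.77 to -0.49 with a median of -0.61. All cultured values of Cyp51 were above 1 and all sorted values below 0. The difference was 1.84 ± 0.099 (SE), 3.58-fold, with an interval of 1.62 to 2.07 and an adjusted p of 3.45e-06 by limma, the smallest of any member. Sc4mol (NM_025436, named Msmo1 in RefSeq) is the methyl sterol oxidase of the following steps. Its values were 4.59 and 3.99 with FGF5 and 4.51 and 3.90 without it, and ran from 2.14 to 2.58 with a median of 2.42 in sorted cells. The arrays numbered 1 in culture were the higher pair, yet the lower pair was still above every sorted array. Sc4mol had a difference of 1.84 ± 0.17 (SE), 3.59-fold, with an interval of 1.44 to 2.24 and an adjusted p of 4.54e-05. Nsdhl and Hsd17b7, which act with Sc4mol in removing methyl groups, were 2.05-fold and 1.52-fold higher, and Tm7sf2, a sterol reductase, 2.21-fold.

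The last enzymes of the pathway did not all share that direction. Dhcr7 (NM_007856) reduces 7-dehydrocholesterol to cholesterol, and read 2.95 and 2.95 with FGF5 and 2.96 and 2.99 without it. Its sorted values ran from 1.52 to 1.77 with a median of 1.66. The cultured values were nearly equal and lay above all sorted ones, with a difference of 1.31 ± 0.097 (SE), 2.48-fold (adjusted p = 1.37e-05, limma). Sc5d (NM_172769), the desaturase of the step just before Dhcr7, went the other way. It read 1.63 and 1.93 with FGF5 and 1.49 and 1.65 without it, and from 2.07 to 2.29 with a median of 2.21 in sorted cells. All 4 cultured values were below all 6 sorted ones, a 1.43-fold lower level (log2 difference -0.52 ± 0.11 (SE), adjusted p = 0.0026, limma). With the percentile over probes well above background the Sc5d difference was -0.18, at an adjusted p of 0.384. Ebp, the isomerase of the step before Sc5d, was not called, with a difference of -0.11 and an interval of -0.43 to 0.21. It turned to 0.23 under that scaling and to 0.031 without GS with FGF5 replicate 1.

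The promoters of the members were read for motifs of known sterol control. RefSeq (GRCm38.p6) matched all 32 members by name, and 25 of them, 15 being sterol enzymes, had windows of 300 bases, 250 before the start and 50 after it. TCACNCCAC, a sterol regulatory element core, was found in 1 of the 25 genes, Hmgcs1, at -137 from the start, and in 388 of 27025 genes over all promoters. By window it was in 3.03% of those of the members and in 1.24% of all 32851. CCAAT was in windows of 14 of the 15 sterol enzymes, Acat2 lacking it, in 4 of 5 regulators and transport genes and in 2 of 5 fatty acid enzymes. Over all promoters it was in 11096 of 27025 genes. Counted by window, of which a gene may have several, CCAAT was in 77.8%, 50% and 40% of those 3 groups and in 37.4% of all. GGGCGG was in 14 of 15, 5 of 5 and 2 of 5 genes and in 10324 of 27025 of all, and by window in 83.3%, 80% and 40% and in 35.7% of all. CACGTG was in 3, 2 and 0 of the same genes and in 2187 of 27025 of all, and by window in 16.7%, 30% and 0% and in 7.15% of all. Both strands were searched, so CCAAT may read ATTGG. A match is a description, and a missing one says only that the letters are not in the window. The members' windows held from 39.7% (Acaca) to 71.7% (Insig1) G and C. The shares over all promoters were not matched for that content or for expression. The 250 bases before the start follow, 5′ to 3′ on the gene's strand, for the early enzymes Hmgcs1 (chr13:119690101-119690350, plus strand) and Idi1 (chr13:8885356-8885605, plus), for Cyp51 (chr5:4104698-4104947, minus) and Sc4mol (chr8:64733579-64733828, minus), which had the largest differences, and for Fasn (chr11:120824548-120824797, minus), which was lower in culture. Capitals mark TCACNCCAC and CCAAT on either strand.
Hmgcs1: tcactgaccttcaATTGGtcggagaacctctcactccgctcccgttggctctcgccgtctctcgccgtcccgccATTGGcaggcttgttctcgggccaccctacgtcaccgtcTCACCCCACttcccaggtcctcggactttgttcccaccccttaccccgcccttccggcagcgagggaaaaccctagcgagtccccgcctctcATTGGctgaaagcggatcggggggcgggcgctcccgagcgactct
Idi1: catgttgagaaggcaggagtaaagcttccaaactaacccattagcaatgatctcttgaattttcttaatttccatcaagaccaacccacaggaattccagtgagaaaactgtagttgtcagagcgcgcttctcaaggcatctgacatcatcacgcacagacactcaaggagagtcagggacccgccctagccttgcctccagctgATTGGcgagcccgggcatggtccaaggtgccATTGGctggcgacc
Cyp51: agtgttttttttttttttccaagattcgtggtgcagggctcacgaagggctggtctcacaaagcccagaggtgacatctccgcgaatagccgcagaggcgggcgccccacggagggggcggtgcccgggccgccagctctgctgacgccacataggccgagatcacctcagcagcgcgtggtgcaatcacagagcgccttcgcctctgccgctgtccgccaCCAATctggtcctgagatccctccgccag
Sc4mol: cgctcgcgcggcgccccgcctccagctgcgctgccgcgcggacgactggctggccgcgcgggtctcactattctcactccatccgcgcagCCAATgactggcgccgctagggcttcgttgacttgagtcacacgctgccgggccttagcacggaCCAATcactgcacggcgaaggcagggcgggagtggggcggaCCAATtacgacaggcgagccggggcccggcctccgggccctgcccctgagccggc
Fasn: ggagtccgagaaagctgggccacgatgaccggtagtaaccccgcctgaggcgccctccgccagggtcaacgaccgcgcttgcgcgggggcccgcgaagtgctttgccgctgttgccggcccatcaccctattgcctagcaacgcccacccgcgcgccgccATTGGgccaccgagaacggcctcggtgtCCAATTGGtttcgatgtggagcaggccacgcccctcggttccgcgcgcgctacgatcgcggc
The Hmgcs1 stretch holds the single sterol element core and 3 CCAAT matches, all reading ATTGG. Fasn also has 3, of which a pair overlaps in CCAATTGG.

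The regulators and transport genes were less uniform: 4 of 6 were called higher in culture (66.7%, beside 41.9% of all tested probes), 1, Insig2, lower under all scalings but 1, and 1 in neither direction. Their median was 0.47, or 0.81 with the percentile over probes well above background. Srebf1 and Srebf2, the genes of the SREBP factors, were 1.79-fold and 1.52-fold higher, at adjusted p of 0.00506 and 0.00537 by limma, with no overlap of cultured and sorted arrays. Insig1, itself a known target of SREBP, was 2.34-fold higher (log2 difference 1.23 ± 0.20 (SE)). It read 1.42 and 2.13 with FGF5 and 1.38 and 2.05 without it, so the pair of arrays numbered 2 was the higher one, the opposite of Sc4mol. Insig2 (NM_133748) read 0.67 and 0.64 with FGF5 and 0.66 and 0.75 without it. Its sorted values ran from 0.88 to 1.05 with a median of 0.96. The groups did not overlap, and Insig2 was 1.22-fold lower in culture (-0.28 ± 0.085 (SE), adjusted p = 0.0175, limma), but with the percentile over probes well above background its difference turned to 0.059. Without GS without FGF5 replicate 1 its adjusted p was 0.0583.

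Scap, the escort of SREBP, was not called, with a difference of -0.29 and an interval of -0.62 to 0.035. Without Fgf5-/- replicate 1, its lowest sorted array, Scap was called lower (-0.39, adjusted p = 0.0105), as it was with normexp (-0.38, adjusted p = 0.0226), and with the percentile over probes well above background its difference was 0.048. Stard4, a soluble carrier of cholesterol, was 1.25-fold higher in culture with an adjusted p of 0.0245 by limma, although the lowest cultured value of 2.02 lay under the highest sorted value of 2.08. The Stard4 call was lost on leaving out GS with FGF5 replicate 1 (adjusted p = 0.0799), GS without FGF5 replicate 1 (0.0968), WT replicate 2 (0.0582) or Fgf5-/- replicate 3 (0.053).

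Among the 8 fatty acid enzymes, 4 were called higher in culture (50%), 3 lower (37.5%) and 1 in neither direction, beside 41.9% higher and 25.7% lower of all tested probes. With the percentile over probes well above background, Acaca turned higher and Fads1 missed the threshold. The median was 0.19, or 0.11 without GS with FGF5 replicate 2, and ran from 0.058 to 0.53 over other settings. Fasn (NM_007988, probe at chr11:120667666-120667725 in mm9) makes palmitate and was the member with the most negative difference. It read -0.65 and -0.91 with FGF5 and -0.80 and -0.78 without it. In sorted cells it ran from 0.50 to 0.81 with a median of 0.63. All cultured values were below 0 and all sorted values above it, a 2.67-fold lower level in culture (log2 difference -1.42 ± 0.096 (SE), interval -1.63 to -1.20, adjusted p = 9.59e-06, limma). Acly, which releases cytosolic acetyl-CoA from citrate and so feeds both branches, was 2.05-fold higher in culture. Acaca (NM_133360), acetyl-CoA carboxylase, commits acetyl-CoA to fatty acids and read 4.62 and 4.74 with FGF5 and 4.69 and 4.89 without it. Its sorted values ran from 4.92 to 5.23 with a median of 4.99. The cultured values ended just below the sorted ones, and Acaca was 1.23-fold lower (-0.30 ± 0.11 (SE), adjusted p = 0.0338, limma), but turned to 0.043 with the percentile over probes well above background.

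That call on Acaca also depended on single arrays. It missed the threshold without GS with FGF5 replicate 1 (adjusted p = 0.1) or 2 (0.0515), GS without FGF5 replicate 1 (0.116), WT replicate 1 (0.0678) or Fgf5-/- replicate 2 (0.062). The other 3 probes of Acaca gave -0.27, 0.32 and 0.17. A dimmer probe gave another direction for Fads2 (0.14) and Hsd17b7 (-0.36) as well, while a second Hsd17b7 probe gave 0.86, and for Acly the dimmer probe gave 0.34, in the same direction as the bright one.

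The elongase and the desaturases, which lengthen and unsaturate the products, were divided. Elovl6, an elongase of palmitate, was 1.60-fold higher in culture, and the stearoyl-CoA desaturases Scd1 and Scd2 were 1.75-fold and 2.04-fold higher, with no overlap of the arrays for any of the 3. For Scd1 this joins means of -1.04 with FGF5 and -1.88 without it, and for Elovl6 of 1.45 and 0.95. Fads1 (NM_146094) desaturates polyunsaturated fatty acids and was lower in culture. It read 0.023 and -0.014 with FGF5 and -0.018 and -0.61 without it, and from 0.33 to 0.59 with a median of 0.39 in sorted cells. GS without FGF5 replicate 2 lay well under the other cultured arrays, and even the highest cultured value was under the lowest sorted one. Fads1 was 1.49-fold lower (-0.57 ± 0.12 (SE), adjusted p = 0.00353, limma), and with the percentile over probes well above background it had -0.23 at an adjusted p of 0.27. Fads2, which acts earlier on the same fatty acids, had -0.33 with an interval of -0.64 to -0.022 and an adjusted p of 0.0561, turned to 0.0073 under that scaling, and was called lower without Fgf5-/- replicate 1 (adjusted p = 0.02). Fads2 was also called lower with quantile normalization (adjusted p = 0.0478), normexp (0.0431), the authors' values (0.0363), the stricter filter (0.0466) and a variance trend (0.0389).

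Array by array, the 3 groups of genes moved differently. Each gene was set to its own mean over the 10 arrays, and the median over the genes of a group was taken on each array. For the sterol enzymes this was 0.54 and 0.71 with FGF5, 0.47 and 0.67 without it, and from -0.47 to -0.27 on the sorted arrays. For the fatty acid enzymes it was 0.11 and 0.27 with FGF5, -0.085 and 0.036 without it, and from -0.21 to -0.041 on the sorted arrays. For the regulators and transport genes it was 0.26 and 0.35 with FGF5, 0.20 and 0.043 without it, and from -0.31 to -0.023 on the sorted arrays. The medians of cultured and sorted arrays were thus separated for the sterol enzymes, by a wide gap, and for the regulators and transport genes, by a narrow one, whereas the fatty acid medians overlapped.

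**Figure D3:**
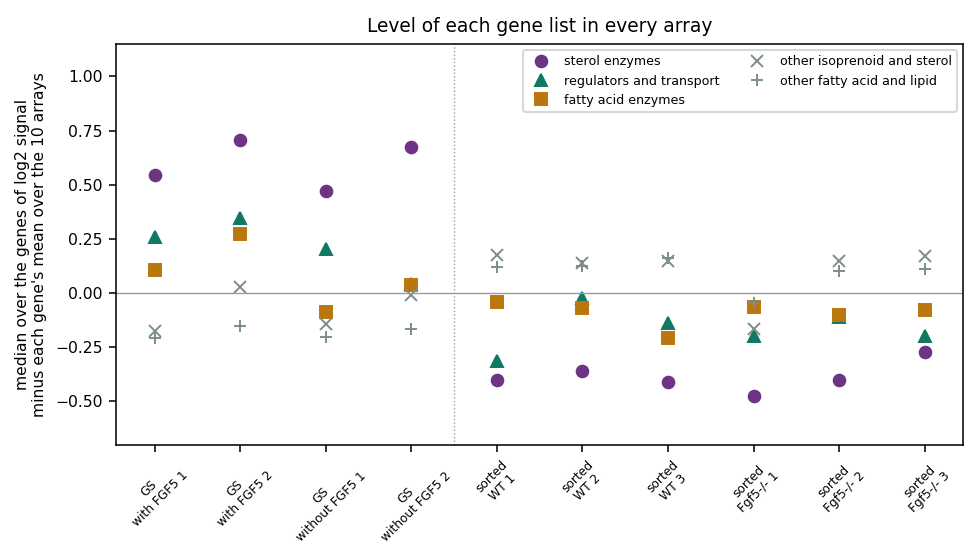
Median, over the genes of each list, of the log2 signal minus the gene's mean over the 10 arrays, plotted for each array, cultured on the left and sorted on the right of the dotted line. The sterol enzymes lie at 0.47 or above on the 4 cultured arrays and at -0.27 or below on the 6 sorted ones, the regulators and transport genes have a narrower gap the same way, and the lists of other pathway genes show none that way. The other fatty acid and lipid genes have a gap the opposite way, from -0.21 to -0.15 on cultured and from -0.045 to 0.16 on sorted arrays.

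Other genes of lipid metabolism went in both directions, and their difference from the sterol enzymes was not tested. Of 16 listed genes of isoprenoid and sterol metabolism, 15 were tested, and 3 were called higher and 6 lower in culture (median -0.18). Of 18 listed genes of fatty acid and lipid metabolism, 17 were tested, and 5 were called higher and 7 lower (median -0.11). In percent this is 20 and 40 of the first list and 29.4 and 41.2 of the second, beside 41.9 and 25.7 of all tested probes. Idi2 and Thrsp were the genes not tested. The largest differences upward were those of Soat1, which esterifies cholesterol (1.17), Mbtps2, a protease that cleaves SREBP (1.15), and Elovl1, an elongase of very long fatty acids (1.04). The largest downward were those of Acacb, the mitochondrial acetyl-CoA carboxylase (-1.43), Nr1h3, the sterol-sensing receptor LXR alpha (-1.18), and Fads3, a relative of Fads1 (-1.09). All 6 passed the limma test, with adjusted p from 0.000158 (Acacb) to 0.00348 (Nr1h3).

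Markers of other cells also differed between the materials, and their part in the member differences was not tested. A summed level follows the brightest probes, so the limma calls are given beside it. Markers of Leydig cells, which use cholesterol, had a summed level of 4.99 to 6.65 in culture and 0.424 to 1.96 in sorted cells, with 2 or 3 of 5 genes above background and 2 of 2 tested genes called higher in culture and 0 lower. Most of that was Cyp17a1, while Cyp11a1 and Lhcgr were above background on 0 arrays. Sertoli markers summed to 2.16 to 2.81 and 6.02 to 10.4, with 1 of 5 tested genes called higher in culture and 3 lower. The brightest was Wt1 on the cultured arrays and Clu or Rhox5 on the sorted ones, and Amh was above background on 0 arrays. Fibroblast markers summed to 7.14 to 16.5 and 5.16 to 6.80, with 5 of 9 tested genes called higher in culture and 2 lower. Col1a1 was the brightest, and Lum and Pdgfrb were above background on 0 cultured arrays.

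Macrophage markers summed to 3.67 to 4.44 in culture and 0.960 to 1.98 in sorted cells, with 4 of 4 tested genes called higher in culture and 0 lower. Csf1r was the brightest except on Fgf5-/- replicate 1, where Cd68 was, and Lyz2 was above background on 0 arrays. Endothelial markers summed to 8.07 to 9.67 and 2.39 to 4.65, a sum that rests on Kdr, with 2 of 4 tested genes called higher in culture and 2 lower: Kdr and Pecam1 were the higher ones, Cdh5 and Tek the lower ones, and Emcn was above background on 0 arrays. Peritubular markers summed to 1.41 to 2.08 and 0.737 to 1.01, with Tagln the brightest and 3 of 4 tested genes called higher in culture and 1 lower, which was Cnn1. Meiotic and haploid markers summed to 21.8 to 29.4 and 25.1 to 34.8, with 2 of 7 tested genes called higher in culture and 4 lower. The brightest was Sycp1 on the cultured and Sycp3 on the sorted arrays, Sycp1 and Acr were the higher ones, and Tnp1, Prm1 and Prm2 were at least 2-fold lower. Insl3 was not found on the array by that name.

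Against that contrast, the addition of FGF5 to GS cells came with small differences in most members. After 24 hr, 26 of the 32 were higher on average with FGF5 (41.4% of all tested probes) and 6 lower, with a median log2 difference of 0.058, where all 34613 tested probes had a median of -0.029. With the percentile over probes well above background 22 were higher and 10 lower, and without GS with FGF5 replicate 2, 19 and 13. The limma test called 0 members and 0 probes (0% of all). At an unadjusted p under 0.05 there were 1 member, Scd1, and 882 probes, which is 2.55% of them. Without GS with FGF5 replicate 1 there was 1 call, which was not a member. The groups did not overlap for 8 members with FGF5 higher (8.18% of probes) and for 1 member, Dhcr7, with FGF5 lower (14.5% of probes). The 8 were Acat2, Idi1, Sqle and Cyp51 of the sterol enzymes and Elovl6, Scd1, Scd2 and Fads1 of the fatty acid enzymes. Over the members the 95% intervals reached from -0.94 (Tm7sf2) to 1.64 (Scd1), with a median SE of 0.18, so 2 arrays against 2 could not exclude differences of that size.

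The branch medians with FGF5 were 0.064 for the sterol enzymes (16 higher, 2 lower), 0.097 for the fatty acid enzymes (7 higher, 1 lower) and 0.012 for the regulators and transport genes (3 higher, 3 lower). On leaving out each array in turn they ran from 0.049 to 0.12, from 0.032 to 0.17 and from -0.027 to 0.077, the lowest of these being without GS with FGF5 replicate 2, GS without FGF5 replicate 2 and GS without FGF5 replicate 1, and the highest without GS without FGF5 replicate 2, GS without FGF5 replicate 1 and GS with FGF5 replicate 1. Among sterol enzymes the largest difference was that of Sc5d, which read 1.63 and 1.93 with FGF5 and 1.49 and 1.65 without it. The groups overlapped slightly, and the difference of 0.21 had an interval of -0.29 to 0.71 and was 0.059 without GS with FGF5 replicate 2. Nsdhl, with 1.24 and 1.33 against 1.17 and 1.45, had the most negative one among them, -0.028 (-0.50 to 0.45), and its untreated values enclosed the treated ones; it turned to 0.11 without GS without FGF5 replicate 2 and to 0.021 without GS with FGF5 replicate 1. Each of the other 16 sterol enzymes lay between these differences, and their intervals spanned 0.

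Of the regulators and transport genes, Stard4 read 2.49 and 2.34 with FGF5 and 2.39 and 2.02 without it, a difference of 0.21 (-0.32 to 0.74) with overlapping groups, or 0.030 without GS without FGF5 replicate 2. Srebf2, the SREBP gene tied most closely to sterol synthesis, read 2.41 and 2.78 against 2.41 and 2.93. Its difference of -0.073 (-0.76 to 0.61), which turned to 0.11 without GS with FGF5 replicate 1 and to 0.19 without GS without FGF5 replicate 2, was smaller than the gap between the arrays numbered 1 and 2 in either condition. Insig2 had 0.67 and 0.64 against 0.66 and 0.75 (-0.051, -0.46 to 0.36), with 3 of the 4 values close together. Scap had 4.77 and 4.57 against 4.79 and 4.63 (-0.039, -0.50 to 0.42), again with a wider gap between numbers than between conditions, and turned to 0.061 without GS with FGF5 replicate 2 and to 0.042 without GS without FGF5 replicate 1. Srebf1, whose product favors fatty acid genes, had 0.16 (-0.46 to 0.78) and was -0.084 without GS without FGF5 replicate 2. Insig1 had 0.064 ± 0.36 (SE), or -0.29 without GS with FGF5 replicate 2 and -0.27 without GS without FGF5 replicate 1. Leaving out 1 array unbalances the numbers between the conditions, so a gap between numbers enters such a difference. Between arrays numbered 1 and then 2, the difference with FGF5 was 0.045 and 0.082 for Insig1 and -0.020 and -0.057 for Scap. For Srebf2 it was 0.0077 and -0.15.

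The largest differences with FGF5 were those of desaturases and an elongase. Scd1 (NM_009127, probe at chr19:44469387-44469446 in mm9) puts the first double bond into stearate and palmitate, and read -1.44 and -0.64 with FGF5 and -1.90 and -1.85 without it. The untreated arrays were close to each other and both treated arrays were above them, by unequal amounts. The difference was 0.84 ± 0.30 (SE), 1.79-fold, with an interval of 0.039 to 1.64, and its limma p of 0.0431 before adjustment became an adjusted p of 1, so Scd1 did not pass. Without GS with FGF5 replicate 2 the difference was 0.44, and without replicate 1 it was 1.24. Elovl6 (NM_130450) read 1.17 and 1.72 against 0.88 and 1.02, with replicate 2 with FGF5 the highest of the 4. It had a difference of 0.50 (-0.14 to 1.13), or 0.22 without that array. For Fads1 the values were 0.023 and -0.014 against -0.018 and -0.61, and a single untreated array made up most of its difference of 0.32 (-0.34 to 0.97), which without GS without FGF5 replicate 2 was 0.022. Acaca had 4.62 and 4.74 against 4.69 and 4.89, the most negative difference of the members at -0.11 (-0.57 to 0.34), with overlap, or -0.012 without GS without FGF5 replicate 2. Fasn, so different between the materials, had 0.0099 (-0.45 to 0.47) here, or -0.12 without GS with FGF5 replicate 1 and 0.14 without GS with FGF5 replicate 2.

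Loss of Fgf5 in the sorted cells came with small differences whose split by direction depended on the scaling. Among the 32 members 15 were higher on average in Fgf5-/- cells (43.9% of all tested probes) and 17 lower, with a median log2 difference of -0.010, where all 30286 tested probes had -0.031. The split was 22 higher and 10 lower both with quantile normalization and with the percentile over probes well above background, and 11 and 21 with the authors' values. The limma test called 0 members and 0 probes (0% of all), and at an unadjusted p under 0.05 there were 0 members and 2053 probes (6.78%). A dimmer probe of Srebf2 gave 0.49 with an adjusted p of 0.728, where the probe that stands for the gene gave -0.020, and the mean of the probes gave 0.24. Without Fgf5-/- replicate 1 the probe that stands for Srebf2 gave 0.011. The groups did not overlap for 3 members with Fgf5-/- higher (7.01% of probes), namely Lss, Hsd17b7 and Fads1, and for 2 with Fgf5-/- lower (9.2% of probes), namely Hmgcs1 and Fasn. The members' intervals reached from -0.89 (Srebf1) to 0.55 (Fads2), so no member's interval reached a 2-fold difference. Without Fgf5-/- replicate 1 there were 6 calls, without replicate 3 there were 5 and without WT replicate 2 or 3 there was 1, with 0 members among them. Without Fgf5-/- replicate 1, 20 members were higher and 12 lower, and without replicate 3, 11 and 21. The branch medians were -0.015 for sterol enzymes, -0.020 for regulators and transport genes and 0.0039 for fatty acid enzymes (0.15 with quantile normalization). Without Fgf5-/- replicate 1 they were 0.081, 0.020 and -0.0069. Over all ways of leaving out 1 array they ran from -0.066 to 0.081, -0.070 to 0.022 and -0.0069 to 0.068, so each took both signs.

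Of the early sterol enzymes, Hmgcs1 (NM_145942) read 4.55, 4.63 and 4.57 in WT cells and 4.54, 4.27 and 4.40 in Fgf5-/- cells. Every Fgf5-/- value was under every WT value, the nearest by a small margin, and the difference of -0.18 (-0.45 to 0.090) became -0.25 without Fgf5-/- replicate 1 and turned to 0.41 with the mean of its probes, of which the dim one was not above background in sorted cells. Fdps read 5.62, 5.61 and 5.59 in WT and 5.05, 5.48 and 5.62 in Fgf5-/- cells. Its low value came from replicate 1, without which the difference of -0.22 (-0.62 to 0.17) was -0.056. Among later enzymes, Lss had 1.99, 2.02 and 1.99 in WT and 2.37, 2.07 and 2.16 in Fgf5-/- cells. The Fgf5-/- values were all above the WT ones, replicate 1 the most, with a difference of 0.20 (-0.077 to 0.48), or 0.11 without it. Tm7sf2 had -2.78, -2.46 and -2.35 and -2.52, -2.38 and -2.26, which overlap (0.14, -0.21 to 0.50). Its difference was 0.21 without Fgf5-/- replicate 1 and ran from 0.018 to 0.28 over the 16 alternatives, which include leaving out each array.

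Hsd17b7, the ketoreductase of methyl removal, had 0.65, 0.56 and 0.43 in WT and 0.69, 0.66 and 0.73 in Fgf5-/- cells. The Fgf5-/- values lay close together and just above the WT values, with a difference of 0.14 (-0.11 to 0.40) and 0.15 without replicate 1. That difference ran from 0.086 to 0.20 over the 16 alternatives, which include leaving out each array. Ebp had -0.32, -0.38 and -0.51 in WT and -0.82, -0.46 and -0.40 in Fgf5-/- cells. Replicate 1 was again the lowest, and without it the difference of -0.15 (-0.50 to 0.19) was -0.022. The enzymes that differed most between cultured and sorted cells had small differences by genotype, as Cyp51 with 0.047 (-0.24 to 0.34), Idi1 with 0.082 (-0.17 to 0.34) and Sc4mol with -0.12 (-0.47 to 0.23). Without replicate 1 these were 0.14, 0.11 and -0.019.

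Srebf1 (NM_011480) had the most negative difference by genotype. It read -2.99, -2.28 and -2.67 in WT and -2.55, -3.23 and -3.04 in Fgf5-/- cells. The WT values spread widely and overlapped with the others, and the difference of -0.29 had an interval of -0.89 to 0.30 and was -0.49 without Fgf5-/- replicate 1. Over the 16 alternatives, which include leaving out each array, the Srebf1 difference ran from -0.49 to -0.11. Fasn read 0.81, 0.65 and 0.65 in WT and 0.62, 0.56 and 0.50 in Fgf5-/- cells. All Fgf5-/- values were under the WT ones, by a narrow gap, with -0.14 (-0.39 to 0.11) and -0.17 without Fgf5-/- replicate 1. The Fasn difference ran from -0.17 to -0.087 over the 16 alternatives. Fads1 went the other way with 0.34, 0.33 and 0.34 in WT and 0.44, 0.48 and 0.59 in Fgf5-/- cells. Its WT values were almost equal and all Fgf5-/- values above them (0.17, -0.066 to 0.40; 0.20 without replicate 1). Elovl6 had 0.56, 0.40 and 0.37 and 0.72, 0.49 and 0.60, with overlap (0.16, -0.12 to 0.44; 0.10). Scd1, which had the largest difference with FGF5, had -0.063 (-0.34 to 0.21) by genotype, or -0.088 without replicate 1.

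**Figure D4:**
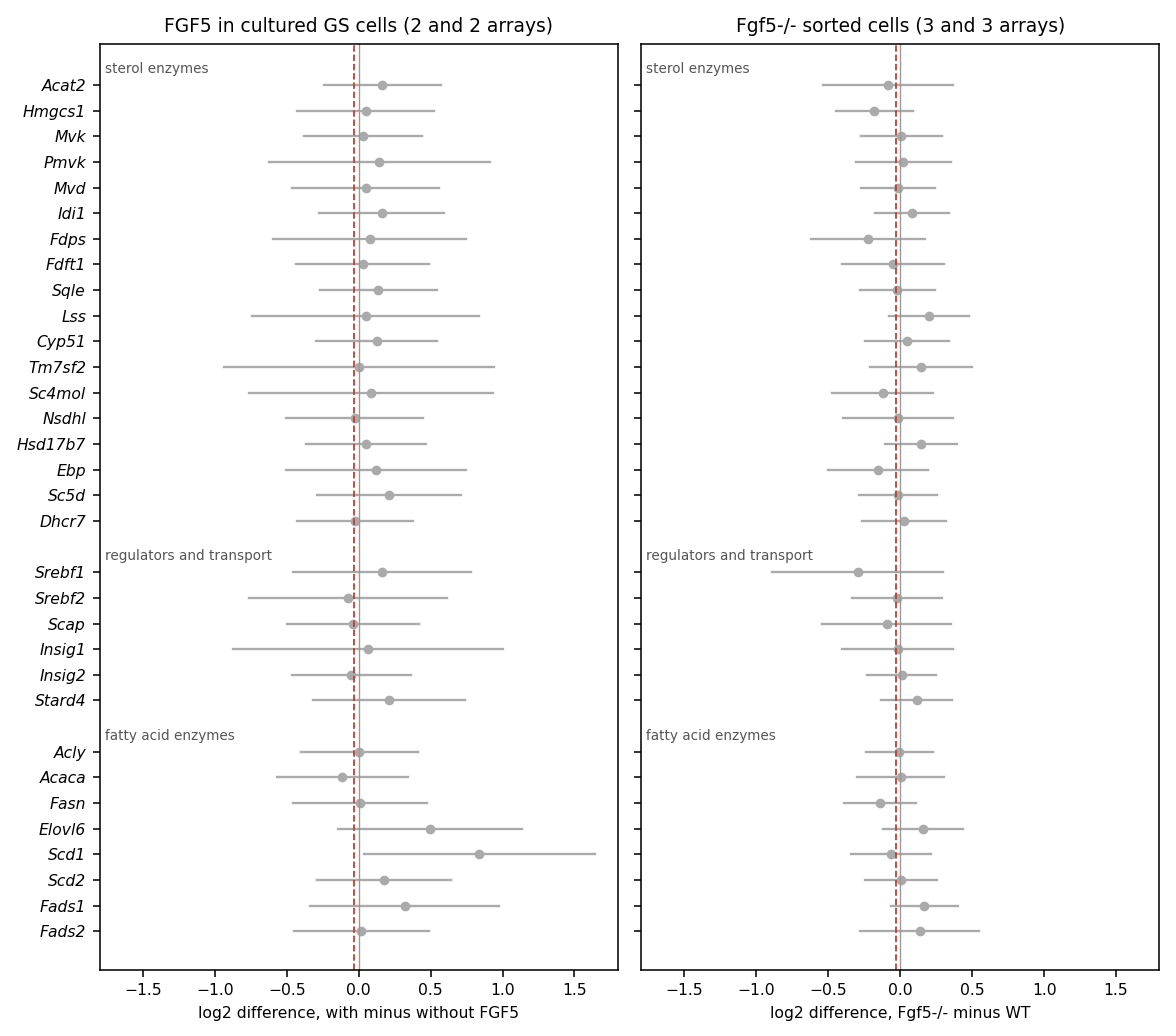
Log2 difference of each member with FGF5 in culture (left, 2 and 2 arrays) and with loss of Fgf5 in sorted cells (right, 3 and 3 arrays), with lines for 95% confidence intervals and a dashed line for the median of all tested probes. All points are gray, as 0 members passed, and the interval of Scd1 on the left, 0.039 to 1.64, is the one that lies clear of 0.

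Other pathway genes likewise gave 0 calls by limma in both comparisons, with 0 of 32 tested genes at an unadjusted p under 0.05 in either. With FGF5 the largest differences were those of Acacb (0.44), Slc25a1, the mitochondrial citrate carrier (0.26), and Elovl5, an elongase (0.24), and downward of Gpam, which starts glycerolipid synthesis (-0.37), Mbtps2 (-0.19) and Dhdds, a subunit of the enzyme that makes dolichol chains (-0.15). By genotype they were those of Gpam (0.42), Mlxipl, the factor ChREBP (0.37), and Acacb (0.32), and downward of Slc25a1 (-0.35), Nus1, the partner of Dhdds (-0.25), and Mylip, a ubiquitin ligase under LXR control (-0.25). For the isoprenoid and sterol list the median was 0.060 with FGF5 and -0.11 by genotype, and for the fatty acid and lipid list 0.081 and -0.082.

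The members also varied among cultures of the same condition. Tm7sf2 read -0.92 and -1.71 with FGF5 and -1.03 and -1.60 without it, and Lss 2.86 and 3.36 against 2.76 and 3.36. For both genes, arrays of equal number were alike across the conditions, Tm7sf2 being higher in those numbered 1 and Lss in those numbered 2. Fdps, with 6.21 and 6.60 against 6.09 and 6.57, and Pmvk, with 2.76 and 3.33 against 2.65 and 3.14, had the order of Lss. These 4 were picked after their values were seen. The sum of the fibroblast markers, whose brightest gene is Col1a1, also went by number. It was 14.8 with FGF5 and 16.5 without it on arrays numbered 1, and 7.14 and 8.15 on those numbered 2. That sum followed Col1a1, which read 3.49 and 1.56 with FGF5 and 3.71 and 2.02 without it. Single markers were divided: Col1a2, Col3a1, Dcn and Col6a1 were lower on the arrays numbered 1 in both conditions, and Pdgfra and Thy1 higher. The part of such cells in the member values was not tested. Among the sorted arrays, the 3 WT values of Fdps, Lss, Fads1 and Idi1 lay close together, while Insig1 ranged from 0.20 to 0.73 and Srebf1 from -3.23 to -2.28 over the 6 arrays.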

How the data were processed

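RNA of 4 cultured and 6 sorted samples was measured on 10 Agilent 8x60K arrays. The scanner intensity per the file headers came from Feature Extraction 10.7.1.1, with background subtracted within the array. The authors' normalized values are log2, made in GeneSpring with a floor of 1.0 and a shift to the 75th percentile, without baseline. Here the scanner signal was floored at 1, logged to base 2, averaged over the spots of a probe (62976 spots, 55681 non-control probes) and shifted to the 75th percentile of the array. Spots marked as outliers by the scanner software were left out, except for 37 values of probes with no other spot. A probe was tested if 1 or more of the compared groups had it well above background on each array, using limma 3.58.1 in R 4.3.3 (data.table version 1.17.8, jsonlite version 2.0.0), two-sided, with Benjamini-Hochberg adjustment over all tested probes and a threshold of 0.05. FGF5 and genotype were fitted within their experiment, and cultured against sorted cells over all arrays with 4 groups.

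Members were named in detail by a rule, the 5 most positive and 5 most negative differences of each comparison; a member outside it is given beside its relatives in the pathway. The members and lists were chosen with earlier results of these data known. The lists were the members in 3 groups, 2 lists of other pathway genes, and markers of 8 kinds of cell. Alternatives tried were quantile normalization, normexp correction of the background (offset 50), the authors' values, a percentile over probes well above background, no filter and a stricter filter (well above background on every array), replicate number as a block, a trend in the variance, a joint fit, the mean of all probes of a gene and leaving out each array. The scripts were tested on simulated data. Promoter windows came from GRCm38.p6, and probe positions, which were not converted, are in mm9.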

Additional observations from a re-analysis of the deposited data

How the results depend on the processing

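With FGF5, limma called 0 probes, and 0 to 1 on leaving out each array (1 without GS with FGF5 replicate 1). By genotype it called 0, and 0 to 6 on leaving out each array. In both comparisons the 9 other alternatives run on calls gave 0; the mean of all probes of a gene was run on members and medians alone. For cultured against sorted cells, the differences of the members kept direction and side of the threshold in 271 of 288 cases under other settings and in 307 of 320 on leaving out 1 array. For the uncalled members the sign changed in 13 of 320 and 32 of 128 cases with FGF5, and in 29 of 320 and 36 of 192 by genotype. Dropping the filter, the stricter filter, the replicate block, the variance trend and the joint fit leave each member's difference as it is. These settings could change calls but not a sign, and all these counts include them. The ranges over the 16 alternatives by genotype include them too.

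The branch medians moved more than the spread between arrays in a few cases. By genotype the sterol median ran from -0.066 to 0.081 on leaving out each array, and the fatty acid median was 0.15 with quantile normalization. For cultured against sorted cells the sterol median was 0.94 with normexp and 1.39 with the percentile over probes well above background. The fatty acid median was 0.53 with that percentile, 0.33 with the mean of all probes of a gene, 0.37 for GS cells with FGF5 against WT, 0.058 for GS cells without FGF5 against WT, and 0.11 to 0.28 on leaving out each array.

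With the percentile over probes well above background, Acaca turned from lower to higher in culture (0.043) and so did Insig2 (0.059); the cause was not tested beyond the shift of all probes. Acaca also missed the threshold with quantile normalization, without the filter and with the mean of its probes, and Stard4 without the filter.

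With replicate number as a block, 0 probes were called with FGF5 (2477 at an unadjusted p under 0.05) and 0 by genotype (1559), and 24007 for cultured against sorted cells, against 24235. Deviations of same-numbered arrays correlated at 0.636 in culture and at -0.417, -0.144 and -0.144 in sorted cells, and the samples share only a number. Where an array was left out in culture, the lone array was assumed to vary like the other group. The conditions then held unequal numbers, so a gap between numbers entered the differences and the changes of sign. All members were well above background on all arrays, and the precision of a difference is given by its SE.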
